A study of Homo sapiens with 7 samples.

Results

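The far gene body, from 60 to 120 kb downstream of position 0, was examined in average gene profiles of nascent transcription. The region was defined by position (from 60000 up to, but not including, 120000) and was divided into 60 bins of 1 kb. It was chosen with earlier results of these data known. The rest of each profile held another 60 bins between position 0 and 60 kb and 2 bins upstream of position 0, and shares over all bins below count these together with the 60. All 60 bins held signal in all 7 libraries, and none was filtered out. The profiles are averages over genes, so the bins carry a distance from position 0 but no chromosome, coordinate, gene name or sequence. Position 0 is taken here as the transcription start.

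The libraries came from MRC5VA, an immortalised human fibroblast cell line, and were made by global run-on sequencing (GRO-seq), which reads the RNA that engaged RNA polymerases extend in isolated nuclei. The Untreated library came from cells that were not irradiated (time 0 h). The libraries named UV-2h, UV-5h, UV-8h, UV-10h, UV-12h and UV-24h came from cells given 15 J/m2 of ultraviolet C (UVC) and collected 2, 5, 8, 10, 12 or 24 h later. Each condition had 1 library, so no spread between cultures is known and no test between conditions was possible.

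UVC light links neighbouring pyrimidine bases in DNA, and RNA polymerase II stalls at such lesions on the transcribed strand. Stalled polymerases call in transcription-coupled repair, which removes the lesion. The farther a stretch lies from the start, the more template a polymerase has to cross to reach it, so the far gene body is the part of a long gene that is reached last by polymerases that started after the damage. The question the series addresses is how transcription along genes changes after UVC and returns with time.

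The depth of each library was recovered from the values, which were whole multiples of a step in all 7 profiles. It came to 12003109 to 25795781 reads per profile, of which 4157919 to 9426361 lay between 60 and 120 kb, and each 1-kb bin held from 62733 to 191574 reads. The intervals below are 95% counting intervals from these reads. They do not cover differences between genes or between cultures. The libraries at 2, 5 and 8 h were the shallower ones and those at 10, 12 and 24 h the deeper ones. The factor that scaled each library is not stated, so levels, ratios and the part regained are given as deposited and, where the value moves, after dividing each profile by its own mean from 0 to 100 kb (own-sum scaling, in which 1 stands for that mean). That mean ran from 2.91 in UV-2h to 3.40 in UV-24h, against 3.35 in Untreated. An average over genes cannot tell a loss in a few genes from a loss in all of them.

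Nascent signal in the far gene body was lowest at 2 h and higher at each later time, as deposited and after own-sum scaling. Scaled instead to a kilobase upstream of position 0, it was lowest at 8 h. The mean deposited signal from 60 to 120 kb was 2.74 in Untreated, 1.91 in UV-2h, 2.06 in UV-5h, 2.16 in UV-8h, 2.25 in UV-10h, 2.35 in UV-12h and 2.69 in UV-24h. The counting intervals reached at most 0.0021 to either side, so none of the 7 means overlapped in counting error. The own-sum means kept this order, but the libraries from 2 to 12 h lay closer together. They were 0.821 in Untreated, 0.655 in UV-2h, 0.672 in UV-5h, 0.686 in UV-8h, 0.689 in UV-10h, 0.696 in UV-12h and 0.793 in UV-24h.

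The share of the signal between 0 and 100 kb that lay beyond 60 kb is free of library scale. It was 34.1% in Untreated and 26.9% in UV-2h. It was then 27.9% in UV-5h, 28.7% in UV-8h, 28.9% in UV-10h and 29.3% in UV-12h, and 33.0% in UV-24h, with 95% Wilson intervals of less than 0.03 percentage points to either side. The share at 12 h was thus nearer to that at 2 h than to that of Untreated, and the share at 24 h was nearer to Untreated.

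**Figure D1:**
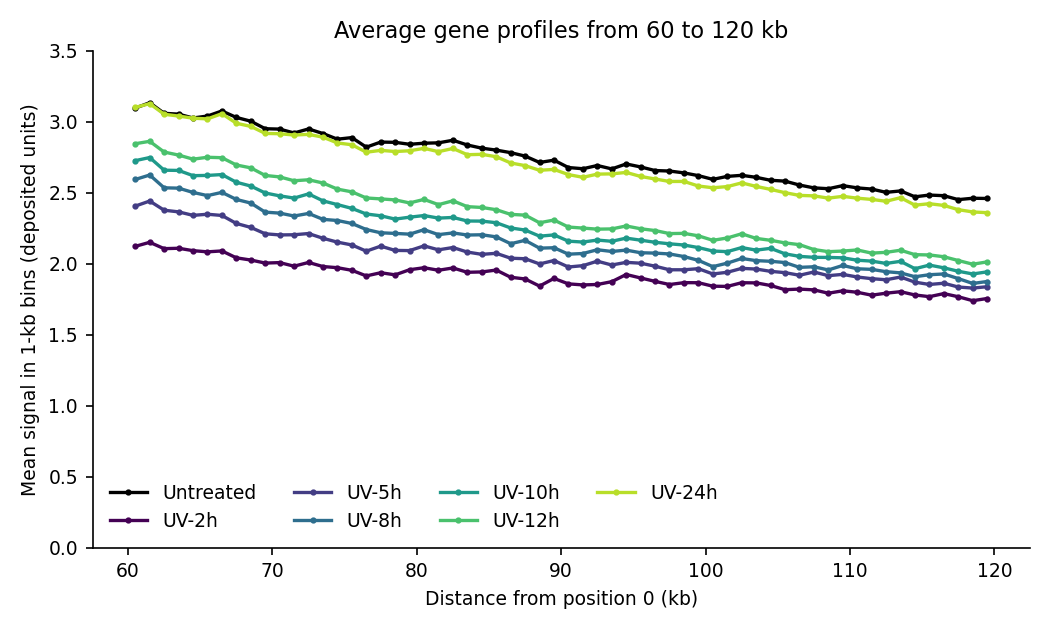
Mean deposited signal in 1-kb bins (vertical axis) against distance from position 0 in kb (horizontal axis), 1 line for each of the 7 libraries. All lines fall with distance; UV-2h (mean 1.91) lies lowest throughout, and UV-24h (2.69) lies close to Untreated (2.74).

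The signal fell with distance in all 7 libraries, with no sharp drop in the average before 120 kb. The lengths of the genes averaged are not stated, so this average cannot place an end of transcription. Part of the region may lie past the ends of some genes. In Untreated the bin starting at 60 kb had a signal of 3.10 and the bin starting at 119 kb one of 2.46, a drop of 20.6%. The drop between these bins was 17.3% in UV-2h (from 2.12 to 1.76). It was 23.6% in UV-5h (from 2.41 to 1.84), 27.7% in UV-8h (from 2.59 to 1.88), 28.7% in UV-10h (from 2.73 to 1.94) and 29.2% in UV-12h (from 2.85 to 2.01). In UV-24h it was 23.9% (from 3.10 to 2.36). The smallest drop was thus found at 2 h and the largest at 12 h, with Untreated between them.

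The slope was measured as a straight-line fit of log2 signal over the 60 bins, which is the same on both scales. In Untreated it was -0.058 log2 units per 10 kb, or -3.93% per 10 kb. It was -0.043 in UV-2h (-2.92%), -0.061 in UV-5h (-4.12%), -0.073 in UV-8h (-4.96%), -0.079 in UV-10h (-5.31%), -0.082 in UV-12h (-5.55%) and -0.064 in UV-24h (-4.37%). The counting standard errors were at most 0.00041, and the standard errors from the scatter of the bins about the line were at most 0.0021. UV-2h was shallower than Untreated by more than either error, and UV-8h, UV-10h, UV-12h and UV-24h were steeper. The difference between UV-5h and Untreated (-0.0029) was beyond counting error but close to the scatter error of the UV-5h line (0.0021). The scatter errors treat neighbouring bins of a profile as independent. They do not measure the spread between cultures and give no test between conditions.

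In deposited signal units the slope per 10 kb was -0.11 in Untreated, -0.057 in UV-2h, -0.088 in UV-5h, -0.11 in UV-8h, -0.12 in UV-10h, -0.14 in UV-12h and -0.12 in UV-24h. After own-sum scaling it was -0.033 in Untreated, -0.020 in UV-2h, -0.029 in UV-5h, -0.035 in UV-8h, -0.038 in UV-10h, -0.040 in UV-12h and -0.036 in UV-24h. UV-2h lost the least signal per 10 kb and UV-12h the most on both scales.

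The fall was not uniform along the region. From 60 to 90 kb the log2 slope per 10 kb was -0.062 in Untreated, -0.059 in UV-2h, -0.091 in UV-5h, -0.10 in UV-8h, -0.11 in UV-10h, -0.11 in UV-12h and -0.074 in UV-24h. From 90 to 120 kb it was -0.049 in Untreated, -0.036 in UV-2h, -0.043 in UV-5h, -0.054 in UV-8h, -0.059 in UV-10h, -0.062 in UV-12h and -0.055 in UV-24h. All 7 libraries were steeper in the nearer stretch, and the profiles at 5 to 12 h had the largest difference between the stretches. The 1-kb bins also rose and fell together. After the straight line was removed, the bins of any pair of libraries correlated with an r between 0.68 and 0.96 (21 pairs, 60 bins each). Removing a cubic curve instead, which takes out more of the shared bend, left an r between 0.65 and 0.88, a description of profiles that average over genes not stated.

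The deficit at 2 h was present in every bin and changed little with distance. As deposited, all 60 bins of UV-2h had a ratio to Untreated under 0.8, where 73.0% of all bins of the profile did. Bin ratios ran from 0.673 (78 to 79 kb) to 0.722 (116 to 117 kb), with a median of 0.694 against 0.709 over all bins of the profile. The ratio over the whole region was 0.696 (0.695 to 0.697), a log2 ratio of -0.52. After own-sum scaling it was 0.798 (0.797 to 0.7996), and 32 of the 60 bins were under 0.8, where 37.7% of all bins of the profile were.

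By sub-window, the UV-2h ratio was 0.684 from 60 to 70 kb, 0.680 from 70 to 80 kb, 0.688 from 80 to 90 kb, 0.702 from 90 to 100 kb, 0.711 from 100 to 110 kb and 0.714 from 110 to 120 kb. Each of these had a counting interval of at most 0.0023 to either side. The deficit was therefore not entirely flat, being slightly smaller at the far end by more than counting error. The straight-line slope of the log2 ratio was 0.015 per 10 kb (counting standard error 0.00052), a rise of 1.05% per 10 kb. From 60 to 90 kb the slope was 0.0032 (counting standard error 0.0014), and from 90 to 120 kb it was 0.013 (0.0015). The standard errors from bin scatter were 0.0028 and 0.0025. The slope from 60 to 90 kb thus lay within 2 scatter standard errors of 0. Bins scattered about the line with 4.54 times the variance that counting gives. Own-sum scaling multiplies all bins of a library by a constant and leaves this slope as it is.

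**Figure D2:**
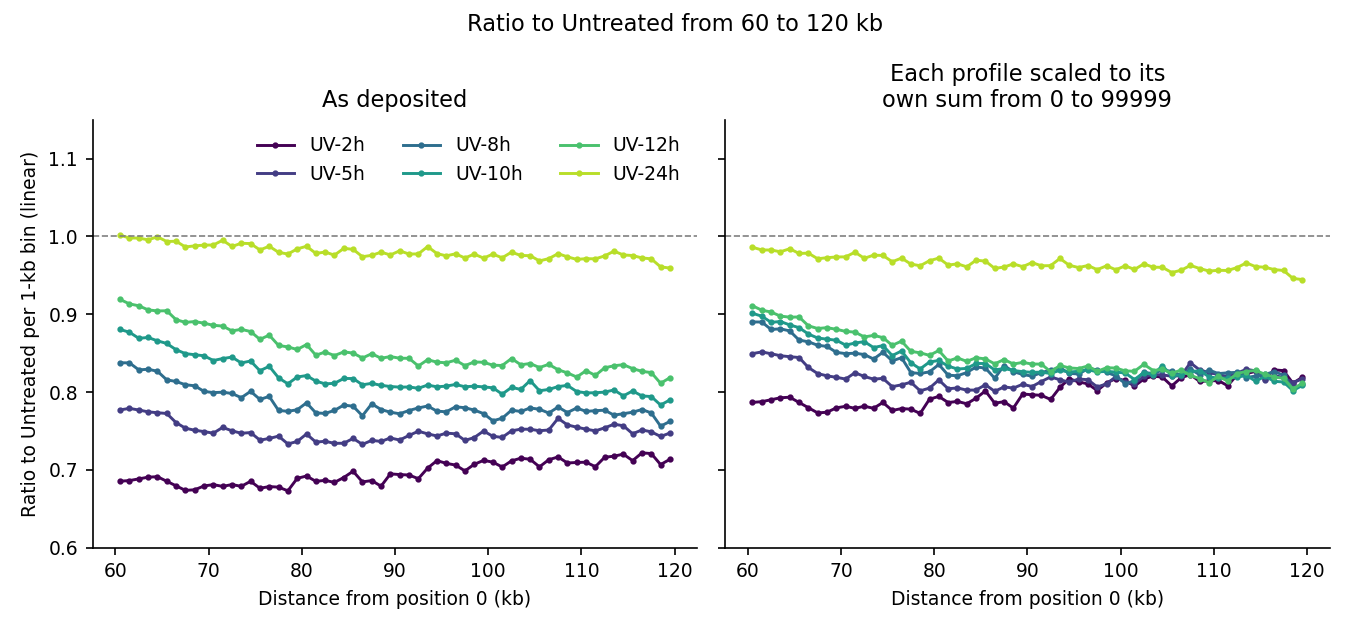
Ratio of each UV library to Untreated in 1-kb bins (vertical axis, linear, starting at 0.6) against distance from position 0 in kb, as deposited (left) and after scaling each profile to its own sum from 0 to 100 kb (right). As deposited the 6 lines stay apart; after scaling, the lines from 2 to 12 h converge to between 0.815 and 0.821 in the 110 to 120 kb sub-window.

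From 8 h on, the ratio to Untreated fell with distance over the region. In UV-5h the log2 ratio had a slope of -0.0029 per 10 kb, less than 2 scatter standard errors (0.0016) from 0, and its sign was not the same in both stretches (-0.029 from 60 to 90 kb and 0.0062 from 90 to 120 kb). It had a lowest sub-window ratio of 0.738 at 80 to 90 kb between 0.767 at 60 to 70 kb and 0.751 at 110 to 120 kb. The slope was -0.016 in UV-8h, -0.021 in UV-10h and -0.025 in UV-12h. In UV-24h it was -0.0067, nearer to 0. The slopes from 8 h on were negative by more than their scatter errors of at most 0.0015, and that of UV-2h was positive (scatter standard error 0.0011). These errors treat the bins as independent and give no test between conditions.

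From 8 h on, the near end of the region was closer to Untreated than the far end. In UV-8h the sub-window ratio went from 0.821 at 60 to 70 kb to 0.771 at 110 to 120 kb. In UV-10h it went from 0.862 to 0.796, and in UV-12h from 0.902 to 0.826. In UV-24h it went from 0.994 to 0.971. After own-sum scaling it went from 0.872 to 0.820 in UV-8h, from 0.883 to 0.815 in UV-10h, from 0.894 to 0.819 in UV-12h and from 0.979 to 0.956 in UV-24h. As deposited, in the UV-8h, UV-10h, UV-12h and UV-24h libraries the highest bin ratio was that of the bin starting at 60 kb. There the bin ratio was 0.838 in UV-8h, 0.880 in UV-10h, 0.919 in UV-12h and 1.001 in UV-24h. The lowest bin ratio was at 118 to 119 kb in UV-8h (0.756), UV-10h (0.783) and UV-12h (0.811) and at 119 to 120 kb in UV-24h (0.959). In UV-5h the highest bin ratio was 0.779 (61 to 62 kb) and the lowest 0.733 (86 to 87 kb).

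The number of bins under a ratio of 0.8 fell after 5 h. As deposited, all 60 bins were under 0.8 in UV-5h, where 54.1% of all bins of the profile were. In UV-8h 49 of the 60 were, against 40.2%. In UV-10h 8 were, against 6.56%, and in UV-12h and UV-24h none was, against 1.64% and 0%. The median bin ratio was 0.748 in UV-5h, 0.778 in UV-8h, 0.809 in UV-10h, 0.844 in UV-12h and 0.978 in UV-24h. Over all bins of the profile it was 0.783, 0.845, 0.887, 0.916 and 0.998. After own-sum scaling the median bin ratio of the region was 0.817, 0.826, 0.828, 0.836 and 0.963 in these libraries. No bin of the region was then under 0.8 from 5 h on, where the share over all bins of the profile was 0% in UV-5h, UV-8h, UV-10h and UV-24h and 1.64% in UV-12h. The difference from the rest of the profile has no replicate and was not tested.

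At 24 h the far gene body was still below Untreated, slightly so as deposited and after own-sum scaling. Its log2 ratio was -0.028 as deposited and -0.050 after own-sum scaling, but -0.26 when scaled to the upstream kilobase. The region's ratio was 0.981 (0.980 to 0.982) as deposited and 0.966 (0.965 to 0.967) after own-sum scaling. As deposited, 59 of the 60 bins were below Untreated, and all 60 were after own-sum scaling. From 30 to 60 kb, 7 of the 30 bins were below Untreated as deposited, and 28 were after own-sum scaling. The own-sum count was thus not particular to the far gene body. The share over all bins of the profile was not counted here. The median ratio over all bins was also below 1, at 0.998 as deposited and 0.983 after own-sum scaling. In the region it was 0.978 and 0.963. The spread between cultures, which any of these differences would have to exceed, is unknown.

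The part regained is the share of the difference between Untreated and UV-2h that a later library had made up. Over 60 to 120 kb as deposited, it was 17.7% in UV-5h (17.4 to 18.01), 29.8% in UV-8h (29.5 to 30.1), 41.1% in UV-10h (40.8 to 41.3), 52.4% in UV-12h (52.2 to 52.7) and 93.8% in UV-24h (93.5 to 94.1). After own-sum scaling the values up to 12 h were much lower. They were 10.4% in UV-5h (9.76 to 10.98), 18.5% in UV-8h (17.9 to 19.1), 20.6% in UV-10h (20.1 to 21.1), 24.4% in UV-12h (24.0 to 24.9) and 83.1% in UV-24h (82.6 to 83.7). On either scale less than 55% had been regained at 12 h and over 80% in UV-24h.

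These values depend on the scale, and a scaling to the kilobase farthest upstream (2 kb to 1 kb before position 0) turned their direction. The region's mean as a multiple of that kilobase was 1.24 in Untreated, 1.03 in UV-2h, 0.865 in UV-5h, 0.789 in UV-8h, 0.859 in UV-10h, 0.963 in UV-12h and 1.03 in UV-24h. On that scale the lowest library was UV-8h, and the part regained was negative from 5 to 12 h, for example -119.6% in UV-8h (-129.7 to -109.5). In UV-24h it was -1.07% (-5.82 to 3.68), within counting error of 0. The upstream kilobase itself was higher than in Untreated (2.22) in the 5 libraries from 5 h on (2.38 to 2.74) and lower in UV-2h (1.85). Each value on this scale is the deposited value divided by that kilobase, so the changes of that kilobase enter these values directly. Why that kilobase changed was not tested.

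Near and far sub-windows regained different parts. As deposited, 26.4% of the deficit had been regained from 60 to 70 kb at 5 h, 43.4% in UV-8h, 56.5% in UV-10h, 69.0% in UV-12h and 98.2% in UV-24h. From 110 to 120 kb it was 12.8% in UV-5h, 19.99% in UV-8h, 28.6% in UV-10h, 39.1% in UV-12h and 89.99% in UV-24h. The difference between these ends grew from 13.6 percentage points in UV-5h to 29.9 in UV-12h and was 8.21 in UV-24h, each beyond its counting interval of at most 1.14 to either side. The 4 sub-windows between them followed in order of distance at 8, 10, 12 and 24 h, for example 60.1%, 51.6%, 45.9% and 42.1% in UV-12h. At 5 h the sub-windows from 90 to 100 kb (14.2%) and from 100 to 110 kb (14.3%) could not be told apart within counting error.

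Bins with at least 50% of the 2 h deficit regained as deposited appeared first near 60 kb. None of the 60 bins had reached this at 5 h or at 8 h, where 12.4% and 32.6% had of the 89 bins of the profile that were under 0.8 in UV-2h. The 89 include the 60, so the 29 bins that had reached it at 8 h all lay outside the region. At 10 h 12 of the 60 had, against 46.1%. At 12 h 29 had, against 64.0%, and at 24 h all 60 had, against 100%. Single bins ran from 35.6% to 74.2% in UV-12h and from 85.8% to 100.5% in UV-24h. After own-sum scaling far fewer bins had reached 50%. Over the same bins, none of the 60 had in UV-5h and UV-8h, against 21.3% and 32.6%, 2 had in UV-10h, against 34.8%, and 5 had in UV-12h, against 37.1%. All 60 had in UV-24h, against 100%. On that scale single bins ran from -5.65% to 58.2% in UV-12h and from 69.4% to 93.5% in UV-24h.

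**Figure D3:**
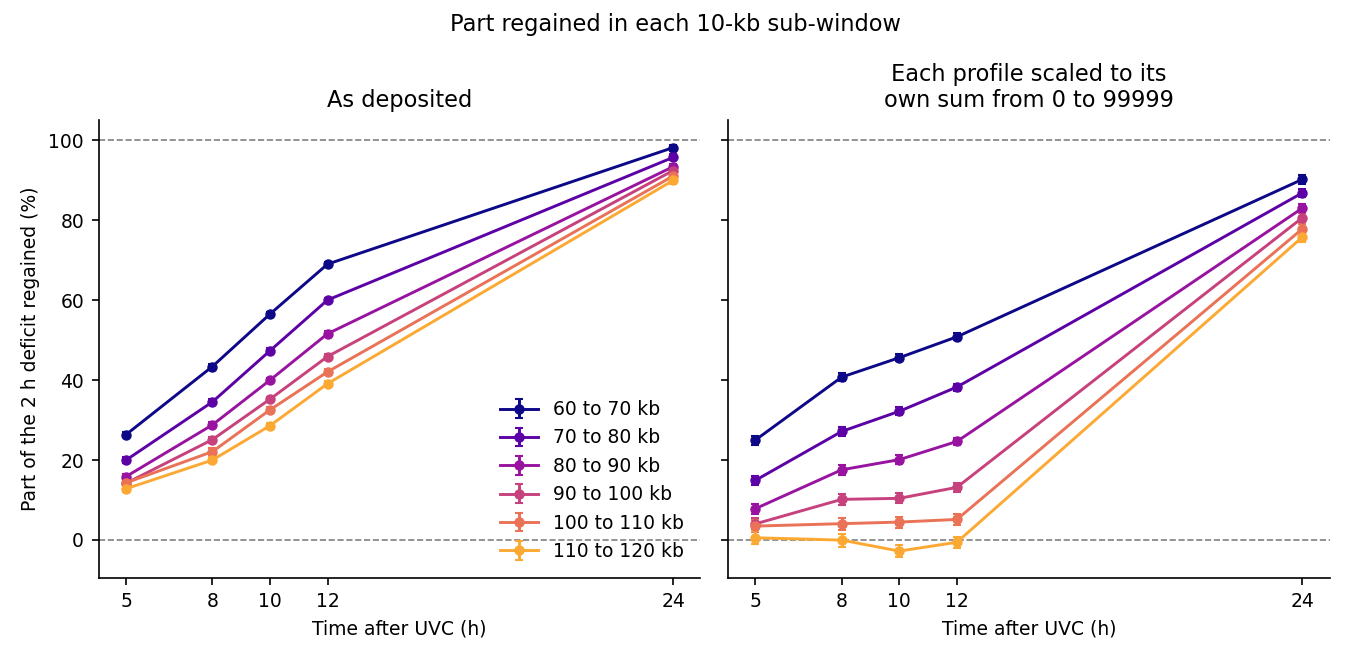
Percentage of the 2 h deficit regained (vertical axis) against hours after UVC, 1 line for each 10-kb sub-window, as deposited (left) and after own-sum scaling (right); error bars are 95% counting intervals. After own-sum scaling the 110 to 120 kb sub-window stays between -2.79% and 0.545% up to 12 h and is at 75.8% in UV-24h.

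After own-sum scaling, the far end of the region stayed near its UV-2h level up to 12 h. This scaling takes out any rise shared with the mean from 0 to 100 kb. That mean was 2.91 in UV-2h and 3.37 in UV-12h. The far end thus rose about in step with it, and as deposited had regained 39.1% in UV-12h. From 110 to 120 kb the part regained was 0.545% in UV-5h (-1.07 to 2.16), -0.042% in UV-8h (-1.66 to 1.57), -2.79% in UV-10h (-4.27 to -1.31) and -0.579% in UV-12h (-1.97 to 0.813). At 24 h it was 75.8% (74.5 to 77.1). The values at 5, 8 and 12 h did not differ from 0 beyond counting error, and the value at 10 h lay below 0. From 100 to 110 kb it went from 3.46% in UV-5h to 5.13% in UV-12h and 77.9% in UV-24h. From 60 to 70 kb, in contrast, 25.0% had been regained at 5 h, 40.8% in UV-8h, 45.6% in UV-10h, 50.8% in UV-12h and 90.3% in UV-24h.

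The own-sum signal shows the same as levels. From 110 to 120 kb it was 0.744 in Untreated, 0.610 in UV-2h, 0.611 in UV-5h, 0.610 in UV-8h, 0.606 in UV-10h, 0.609 in UV-12h and 0.712 in UV-24h. The 5 libraries from 2 to 12 h lay together, and only UV-24h stood between them and Untreated. From 60 to 70 kb the own-sum signal was 0.911 in Untreated, 0.715 in UV-2h, 0.764 in UV-5h, 0.795 in UV-8h, 0.804 in UV-10h, 0.814 in UV-12h and 0.892 in UV-24h, each library being higher than the one before it in time. Among the 60 bins of the region, those with less own-sum signal than in UV-2h numbered 7 in each of UV-5h, UV-8h and UV-10h and 6 in UV-12h. All of them lay beyond 94 kb, and UV-24h had none. The lowest part regained in such a bin was -8.59%, in UV-10h. Single bins were not compared with their counting error. From 30 to 60 kb no library from 5 h on had such a bin. Bins nearer than 30 kb were not counted, so the share over the whole profile is not known.

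Up to 12 h the near end gained more than the far end, and from 12 to 24 h it gained less. As deposited, and as a percentage of Untreated signal, the gain from 2 to 5 h was 8.34 percentage points at 60 to 70 kb and 3.66 at 110 to 120 kb. From 5 to 8 h it was 5.39 and 2.05, from 8 to 10 h 4.15 and 2.46, and from 10 to 12 h 3.96 and 3.01. From 12 to 24 h the order was the other way round, with 9.23 points near and 14.5 points far. At 12 h the near end was already at 0.902 of Untreated and the far end at 0.826. The near end thus had less left to regain, and the part of this in the turn was not tested. Per hour, the near end gained 2.78, 1.80, 2.08 and 1.98 points in the earlier steps and 0.769 in the last. The far end gained 1.22, 0.683, 1.23 and 1.50 points per hour in the earlier steps and 1.21 in the last. As deposited, the hourly gain of the near end was thus lowest in the last step, while that of the far end was within its earlier range. After own-sum scaling the last step was 8.49 points near and 13.8 points far, so the order in that step was the same on both of these scales. The hourly gain of the far end on that scale was 0.033, -0.035, -0.25 and 0.20 points in the earlier steps and 1.147 in the last. That of the near end was 1.80, 1.13, 0.523 and 0.562 points in the earlier steps and 0.708 in the last. On that scale the near end thus did not slow after 12 h. The 12 to 24 h step spans 12 h with no library inside it.

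The region from 30 to 60 kb had a 2 h deficit of similar size but a different course. Its ratio at 2 h was 0.716, against 0.696 beyond 60 kb, but its log2 ratio had a slope of -0.068 per 10 kb, where that of the far gene body was 0.015. Bin ratios ran from 0.822 at 30 kb to 0.682 at 59 kb. The part regained there as deposited was 45.9% in UV-5h, 63.8% in UV-8h, 80.9% in UV-10h, 94.4% in UV-12h and 102% in UV-24h. The far gene body thus lagged by 28.2 percentage points in UV-5h, 34.0 in UV-8h, 39.8 in UV-10h, 42.0 in UV-12h and 8.26 in UV-24h. After own-sum scaling the lag was 47.6, 55.4, 61.4, 61.8 and 11.5 points. All of these exceeded counting intervals of at most 1.02 points to either side, and with 1 library per time the lag has no replicate check.

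**Figure D4:**
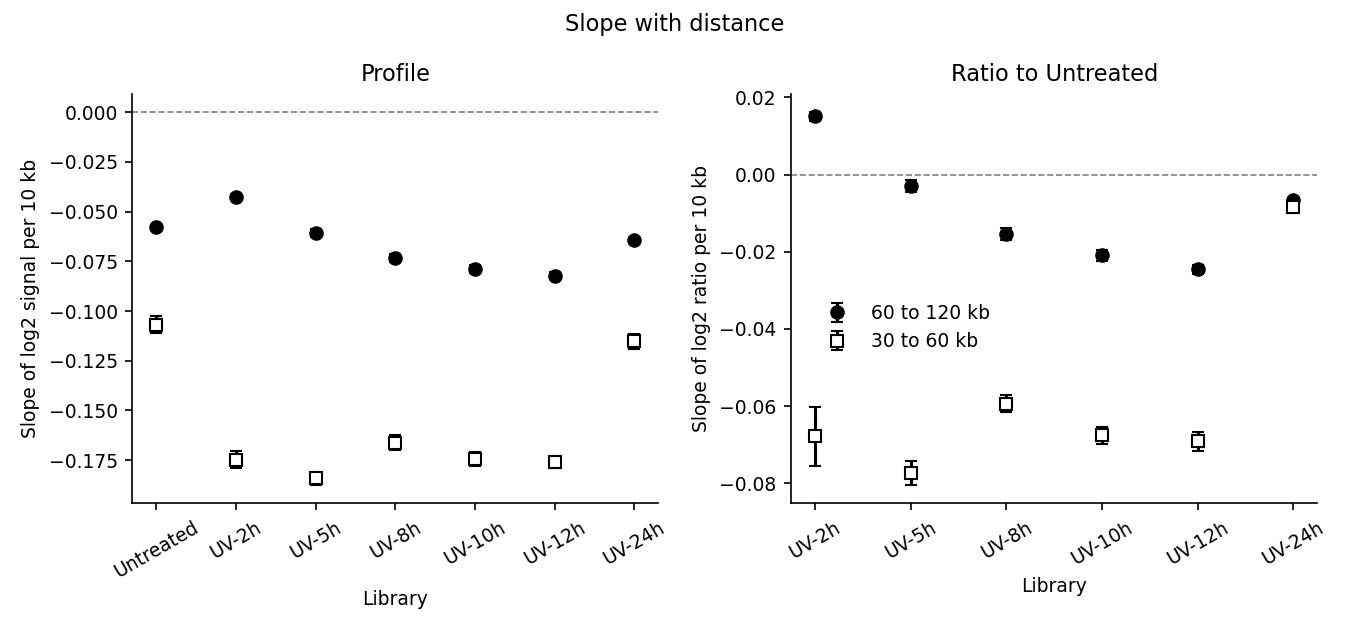
Slope per 10 kb of log2 signal in each library (left) and of the log2 ratio to Untreated in each UV library (right), for 60 to 120 kb (filled circles) and 30 to 60 kb (open squares); error bars are standard errors from the scatter of the bins about the line. In the right panel only UV-2h from 60 to 120 kb lies above 0 (0.015).

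The slope of the profile itself also differed between the regions. From 30 to 60 kb the log2 slope per 10 kb was -0.11 in Untreated, -0.17 in UV-2h, -0.18 in UV-5h, -0.17 in UV-8h, -0.17 in UV-10h, -0.18 in UV-12h and -0.12 in UV-24h. All 6 UV libraries were steeper than Untreated there, UV-24h the least (log2 ratio slope -0.0084, scatter standard error 0.0015). Beyond 60 kb UV-2h was shallower.

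Among the 6 UV libraries, later ones had more signal in the far gene body, with a Spearman's rho of 1 (exact permutation p = 0.0028, two-sided; adjusted p = 0.0056 over 4 tests). Pearson's r was 0.99 (exact permutation p = 0.0014, two-sided; adjusted p = 0.0056). When UV-2h and UV-24h, the times farthest from the median, were left out, r was 0.996 with 4 libraries. Within the 3 shallower libraries and within the 3 deeper ones rho was 1, where an exact permutation p cannot go below 0.33. Scaled to the upstream kilobase, the relation was lost (rho -0.029, exact permutation p = 1).

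The log2 slope of the far profile had no such relation to time among these libraries. Its rho was -0.66 (exact permutation p = 0.175, two-sided; adjusted p = 0.233), and its r was -0.38 (exact permutation p = 0.449, two-sided; adjusted p = 0.449). UV-24h decided this. Without UV-24h the slope became steeper with each later time (rho -1, exact permutation p = 0.017, r -0.98, exact permutation p = 0.0083), and without both UV-2h and UV-24h r was -0.98 over 4 libraries. Within the shallower libraries rho was -1, and within the deeper ones it was 0.5.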

How the data were processed

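GRO-seq profiles of 7 libraries (1 Untreated and 6 UVC-irradiated) were used. The authors deposited for each library a signal, the average read coverage over genes at 122001 positions from -2000 to 120000. The submitters' processing notes name BWA 0.5.9 and hg19 (GRCh37). The list of genes, the strand handling and the scaling are not given in the sources used here, and no reference sequence was used. The groups were taken from the titles.

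From the values, all of which (100%) were whole multiples of a step within 0.001 of a step, reads were recovered as summed signal divided by the step and by 250 bases, the lag of the lowest autocorrelation of successive differences in every library. Counting errors assume independent reads; a read that crosses a bin edge counts in both bins in part. Slopes were unweighted least-squares fits over 1-kb bins, ratios used no pseudocount, and intervals of the part regained used the delta method. The code was tested on simulated profiles. Own-sum scaling used the positions from 0 to 100 kb, so bins beyond 100 kb lie outside the sum. Relations to time were tested by exact permutation with Benjamini-Hochberg adjustment over 4 tests. The bins named are all sub-windows, the ends of the region and the extreme bins of each library. The region, measures and thresholds were chosen with earlier results of these data known. Alternatives were own-sum and upstream scaling, subtraction of a background, an end at 100 kb, bins of 5 kb and leaving out UV-24h. Python 3.11.15, numpy 2.4.6, scipy 1.17.1 and matplotlib 3.10.9 were used.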

Additional observations from a re-analysis of the deposited data

Results flagged for a closer look

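The log2 ratio to Untreated changed with distance in opposite directions at different times between 60 and 120 kb. Its slope per 10 kb was 0.015 in UV-2h, and it was -0.0029 in UV-5h, -0.016 in UV-8h, -0.021 in UV-10h, -0.025 in UV-12h and -0.0067 in UV-24h. The UV-5h slope lay within 2 scatter standard errors (0.0016) of 0. With 1 library per time the difference in sign was not tested. In the same order of libraries, the scatter of the bins about the line had 4.54, 9.31, 8.77, 8.98, 8.30 and 1.33 times the variance that counting gives.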

How the results depend on the processing

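Values follow the order 2, 5, 8, 10, 12 and 24 h. With no replicates, values were compared with their 95% counting intervals, so nearly any change of processing moved them; replicates could not be left out. No paired analysis was possible because conditions had a single library each. The log2 ratio over 60 to 120 kb was negative at all 6 times with each of the 4 alternatives. It was -0.32, -0.29, -0.26, -0.25, -0.24 and -0.050 with own-sum scaling. Scaling to the upstream kilobase gave -0.26, -0.52, -0.65, -0.53, -0.36 and -0.26. Subtracting 0.5 times the lowest 1-kb mean, an arbitrary background of 40.4% to 45.6% of the region's mean, gave -0.65, -0.52, -0.41, -0.34, -0.28 and -0.11. In all 6 UV libraries that lowest kilobase lay in the region itself, starting at 118 kb, or at 119 kb in UV-24h. In Untreated it was the upstream kilobase. The background was thus drawn from the signal under study, so this alternative gives no independent support here or below. An end at 100 kb gave -0.54, -0.34, -0.27, -0.21 and -0.022 at 2, 8, 10, 12 and 24 h and left the 5 h value within its interval.

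The part regained at 5, 8, 10, 12 and 24 h was 10.4%, 18.5%, 20.6%, 24.4% and 83.1% with own-sum scaling, 17.4%, 31.6%, 41.7%, 51.9% and 79.4% with the background subtracted. A region ending at 100 kb gave 19.4%, 33.4%, 45.3%, 57.3% and 95.1%. It reversed under upstream scaling, to -82.5%, -119.6%, -85.4%, -34.1% and -1.07%, the last within counting error of 0 (-5.82 to 3.68). This scaling multiplies each library by a constant, and the log2 ratio of the upstream kilobase to Untreated was -0.26, 0.10, 0.30, 0.24, 0.14 and 0.24.

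The log2 slope of the profile, Untreated first, was -0.097, -0.078, -0.11, -0.13, -0.14, -0.14 and -0.12 with the background subtracted, and ending the region at 100 kb gave -0.062, -0.049, -0.077, -0.089, -0.094, -0.097 and -0.071. The slope of the log2 ratio kept its sign in all 6 UV libraries. It was 0.019, -0.012, -0.031, -0.040, -0.046 and -0.018 with the background subtracted, and 0.013, -0.015, -0.026, -0.032, -0.035 and -0.0089 when the region ended at 100 kb, so its size at 5 h depended on where the region ended. Bins of 5 kb left all 13 slopes within their intervals.

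The relation of signal to time was the same with own-sum scaling and without UV-24h. With upstream scaling rho was -0.029 (exact permutation p = 1) and r was 0.33 (exact permutation p = 0.581). The relation of slope to time passed 0.05 only without UV-24h (rho -1, exact permutation p = 0.017, r -0.98, exact permutation p = 0.0083).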
